A study of Mus musculus with 4 samples.

Results

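Transcripts of 10 acute phase protein genes were followed in single cells of the mouse liver: the serum amyloid A genes Saa1, Saa2, Saa3 and Saa4, the orosomucoids Orm1 and Orm2, haptoglobin (Hp), hemopexin (Hpx), lipocalin 2 (Lcn2) and Serpina3n. They were chosen by gene symbol among the 55488 genes of the count matrices, and all 10 passed the filter of 100 UMIs per comparison described below. Livers of 4 mice were digested, hepatocytes (HCs) and non-parenchymal cells (NPCs) were isolated separately and mixed, and 1 droplet 3′ library was made per mouse. The WT mouse was genetically unmodified, the YAPKO mouse carried floxed Yap alleles, the TAZKO mouse floxed Taz alleles (the gene Wwtr1) and the DKO mouse both, each with an Alb-Cre transgene that recombines in HCs and in biliary epithelial cells (BECs). YAP and TAZ are transcriptional co-activators at the end of the Hippo pathway. No mouse received a treatment according to the labels, and the age and sex of these 4 mice are not stated in the sources used here. In the HCs of WT, YAPKO, TAZKO and DKO the Y-linked gene Ddx3y had 951, 1184, 1598 and 2416 UMIs. Xist, which is transcribed in female cells, had 0, 3, 2 and 5, so all 4 mice were read as male. With 1 mouse per genotype there is no replicate, so no test was possible, every interval below is a 95% interval for counting error only, and a difference between libraries cannot be told apart from a difference between individual mice or preparations.

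The acute phase response is the rapid change in the set of plasma proteins that the liver secretes after infection or tissue injury. Interleukin-6 acts through its receptor and STAT3, and interleukin-1 and tumor necrosis factor act through NF-kB, and C/EBP factors take part in the induction of many of the genes in HCs. Serum amyloid A proteins are carried on high density lipoprotein, orosomucoids bind small lipophilic molecules, haptoglobin and hemopexin capture free hemoglobin and free heme, lipocalin 2 binds bacterial iron siderophores, and Serpina3n is a secreted protease inhibitor.

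In the annotation of the mouse genome GRCm38 the 4 Saa genes lay within 42316 bases of chromosome 7: Saa3 (chr7:46711998-46715700, minus strand), Saa4 (chr7:46727998-46732603, minus strand), Saa1 (chr7:46740497-46742980, minus strand) and Saa2 (chr7:46751790-46754313, plus strand). Saa1 and Saa2 pointed away from each other with 8810 bases between their starts. Orm1 (chr4:63344560-63348163) and Orm2 (chr4:63362449-63365878) were neighbours on the plus strand of chromosome 4. Hp lay at chr8:109575128-109579172 on the minus strand, Hpx at chr7:105591613-105600137 on the minus strand, Lcn2 at chr2:32384633-32388252 on the minus strand and Serpina3n at chr12:104406729-104414329 on the plus strand. Because 3′ libraries read transcript ends, near-identical ends can share reads. Of the 90-base windows in the last 500 bases of the annotated transcripts, 70 of 563 in Saa1 were also present in Saa2, and 67 of 411 in Orm1 were also present in Orm2. Serpina3n shared none with its 10 Serpina3 paralogs, and in these 3 families the split of reads was uncertain for Saa1 against Saa2 and for Orm1 against Orm2. Hp, Hpx and Lcn2 were not compared with other genes.

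Promoter windows of 300 bases around the RefSeq start of the gene (GRCm38.p6) were found for 8 of the 10 genes. The RefSeq start lay within 43 bases of the gene end given above for 7 of them, but for Lcn2 it lay 513 bases inside the gene, so that its window falls within the coordinates above. Those of the 5 genes whose levels differed most between libraries, or that have a near-identical neighbour, are shown 5′ to 3′ on the strand of the gene, with matches to the C/EBP-type motif TTGCNNAA, read on both strands, in capitals. They lie at chr7:46742931-46743230 (Saa1, minus), chr7:46751583-46751882 (Saa2, plus), chr7:46715627-46715926 (Saa3, minus), chr4:63362199-63362498 (Orm2, plus) and chr2:32387690-32387989 (Lcn2, minus).
Saa1: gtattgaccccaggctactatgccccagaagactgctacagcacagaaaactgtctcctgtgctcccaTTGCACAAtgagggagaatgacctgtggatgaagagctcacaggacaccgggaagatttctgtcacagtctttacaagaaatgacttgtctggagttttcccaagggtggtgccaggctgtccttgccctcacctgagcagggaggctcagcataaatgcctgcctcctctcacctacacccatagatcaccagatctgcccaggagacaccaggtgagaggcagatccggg
Saa2: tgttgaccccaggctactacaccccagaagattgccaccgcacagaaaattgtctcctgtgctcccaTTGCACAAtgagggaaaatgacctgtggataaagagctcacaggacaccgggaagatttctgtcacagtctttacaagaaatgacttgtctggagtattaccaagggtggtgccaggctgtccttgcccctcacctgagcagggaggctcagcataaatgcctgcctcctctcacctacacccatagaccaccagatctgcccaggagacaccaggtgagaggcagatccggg
Saa3: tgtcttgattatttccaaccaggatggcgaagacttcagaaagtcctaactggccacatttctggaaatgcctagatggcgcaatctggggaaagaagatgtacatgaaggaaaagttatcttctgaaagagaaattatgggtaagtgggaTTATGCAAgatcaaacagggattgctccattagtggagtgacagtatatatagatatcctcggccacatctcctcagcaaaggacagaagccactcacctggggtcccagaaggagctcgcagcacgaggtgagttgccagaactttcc
Orm2: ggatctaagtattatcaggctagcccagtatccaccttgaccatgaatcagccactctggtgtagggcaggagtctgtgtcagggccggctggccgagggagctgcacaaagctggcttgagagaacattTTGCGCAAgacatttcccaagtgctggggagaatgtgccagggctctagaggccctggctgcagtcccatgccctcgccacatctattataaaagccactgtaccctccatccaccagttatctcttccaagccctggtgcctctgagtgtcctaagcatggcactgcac
Lcn2: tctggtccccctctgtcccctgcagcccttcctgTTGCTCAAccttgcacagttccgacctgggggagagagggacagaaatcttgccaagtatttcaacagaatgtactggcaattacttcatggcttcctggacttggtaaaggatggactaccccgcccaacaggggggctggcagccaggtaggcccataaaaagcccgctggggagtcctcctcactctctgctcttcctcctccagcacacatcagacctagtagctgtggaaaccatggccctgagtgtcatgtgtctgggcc
The Saa1 and Saa2 windows were 95.3% identical over 301 aligned columns, while the Saa1 and Saa3 windows shared 51.3%. TTGCNNAA was found in 7 of the 8 windows, Serpina3n being the exception, and in 10.8% of 32851 mouse promoter windows of the same length. It began 182 bases before the RefSeq start in Saa1, 183 in Saa2, 99 in Saa3, 120 in Orm2, 200 in Hpx and 216 in Lcn2, and Saa4 held it at 245 and at 52 bases. The STAT motif TTCNNNGAA (8.3% of all windows), the letters CTGGGAA of an interleukin-6 response element (11.1%) and the NF-kB consensus (4.51%), each read on both strands, were in none of the 8 windows. Such matches describe the letters in these windows and are not binding sites.

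The analysis took barcodes in which 500 to 6000 genes were found and up to 10% of UMIs were mitochondrial (unique molecular identifiers, each standing for 1 captured transcript). This left 7155 WT, 6275 YAPKO, 8638 TAZKO and 8294 DKO cells. HCs were those in which Alb, Apoa1, Ttr and Apoc3 together made up at least 3% of UMIs: 2254 WT, 1159 YAPKO, 3112 TAZKO and 2925 DKO cells. All 10 HC markers were detected in the HCs of every library, which for Alb, Apoa1, Ttr and Apoc3 follows from the rule itself. The libraries differed in depth, with a median of 2166.5, 6457, 1854.5 and 6475 UMIs per HC in WT, YAPKO, TAZKO and DKO, and between 10 and 67 barcodes were shared by any pair of libraries. Yap1 was at 21.2 UMIs per 1000000 HC UMIs (CPM) in WT and 46.3 in TAZKO, against 4.55 in YAPKO and 4.67 in DKO, and Wwtr1 at 5.58 in WT and 13.5 in YAPKO against 3.34 in TAZKO and 2.89 in DKO. These 3′ reads need not cover the deleted exons, whose position was not compared. The scale itself differed between libraries: over all genes tested, the median log2 ratio to WT was 0.40 in YAPKO, 0.61 in TAZKO and 0.46 in DKO, and 0.07 for DKO against YAPKO. Mup20, a major urinary protein gene with near-identical copies, alone took 74485 CPM in WT, 42639 in YAPKO, 7018 in TAZKO and 41688 in DKO.

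In HCs the acute phase genes fell into patterns that differed between the genotypes. Saa1 and Saa2 were at similar levels in WT and YAPKO and lower in both other libraries, 17.3-fold and 14.8-fold in TAZKO and 5.95-fold and 6.77-fold in DKO. Lcn2 was 8.70-fold higher in YAPKO and 4.78-fold higher in DKO than in WT. Together the 10 genes made up 1.71% of HC UMIs in WT, 1.91% in YAPKO, 0.578% in TAZKO and 1.10% in DKO.

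**Figure D1:**
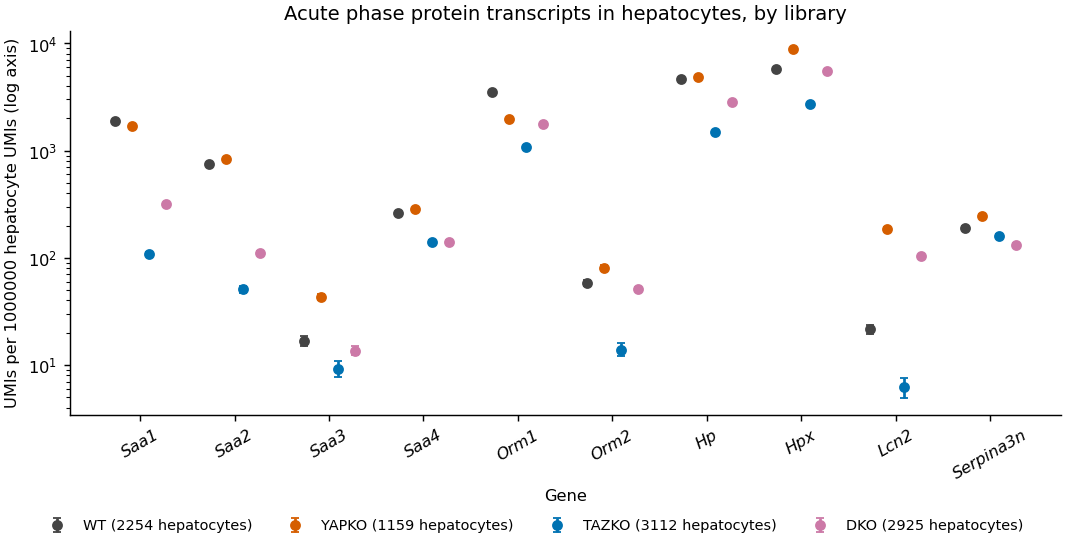
Level of each of the 10 genes in hepatocytes of each library, as UMIs per 1000000 hepatocyte UMIs on a log axis, with exact 95% Poisson intervals for counting error, many smaller than the point. Saa1 and Saa2 of TAZKO and DKO lie below those of WT and YAPKO, and Lcn2 of YAPKO (188) and DKO (103) above that of WT (21.6).

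Saa1 was at 1881 CPM (1861 to 1900) in WT, 1707 (1688 to 1727) in YAPKO, 109 (104 to 114) in TAZKO and 316 (310 to 322) in DKO HCs. Saa2, its neighbour, was at 754 CPM (742 to 766) in WT, 836 (822 to 850) in YAPKO, 50.9 (47.2 to 54.7) in TAZKO and 111 (107.7 to 115) in DKO. For both genes the TAZKO library was lowest, DKO lay between, and WT and YAPKO were together at the top. Against WT, Saa1 was lower in TAZKO by a log2 ratio of -4.11 (-4.18 to -4.04) and in DKO by -2.57 (-2.61 to -2.54), and Saa2 by -3.89 (-3.999 to -3.78) and -2.76 (-2.81 to -2.71). The YAPKO ratios were small, -0.14 (-0.16 to -0.12) for Saa1 and 0.15 (0.12 to 0.18) for Saa2, and each turned sign in 2 of 10 alternatives (-0.54 to 0.30 and -0.51 to 0.61). Saa1 made up 71.4% of the UMIs of both genes in WT, 67.1% in YAPKO, 68.2% in TAZKO and 73.9% in DKO over all HCs, a share that depends on the uncertain split of reads and, in TAZKO, on 2 cells that held 50% of the Saa2 UMIs.

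Saa3, which in mice is also made outside the liver, was a rare transcript in HCs. It was at 16.7 CPM (14.96 to 18.7) in WT, 43.1 (40.05 to 46.4) in YAPKO, 9.18 (7.68 to 10.9) in TAZKO and 13.6 (12.3 to 14.9) in DKO. YAPKO was the highest library, at 2.58-fold the WT level (2.26 to 2.95), but few cells carried this: 6 of the 1159 YAPKO HCs held 50% of the 729 Saa3 UMIs, and 1 cell held 130. The YAPKO to WT log2 ratio of Saa3 was 1.37, 0.54 without HCs that carried 5 or more marker UMIs of another cell type, 0.96 relative to the median gene and -0.72 in HCs with at least 10% of the 4 reference genes (233 WT and 73 YAPKO cells). Saa4, the constitutive member of the family, was at 261 CPM (254 to 268) in WT, 286 (278 to 294) in YAPKO, 141 (135 to 147) in TAZKO and 141 (137 to 145) in DKO. Against WT, TAZKO and DKO both gave a log2 ratio of -0.89, with intervals for TAZKO of -0.97 to -0.82 and for DKO of -0.94 to -0.83, a smaller difference than that of Saa1 and Saa2 in the same libraries. The YAPKO ratio of Saa4, 0.13, turned sign in 5 of 10 alternatives (-0.42 to 0.20). Without HCs that carried other markers the YAPKO ratio was -0.42 and that of DKO was -1.40.

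Orm1, the main orosomucoid of these libraries, was at 3499 CPM (3472 to 3525) in WT, 1953 (1932 to 1974) in YAPKO, 1073 (1056 to 1090) in TAZKO and 1789 (1774 to 1803) in DKO. WT was the highest library, and the 3 mutant libraries were lower by log2 ratios of -0.84, -1.71 and -0.97. Orm2 was at 58.0 CPM (54.6 to 61.5) in WT, 80.9 (76.7 to 85.3) in YAPKO, 13.9 (12.1 to 15.98) in TAZKO and 51.3 (48.8 to 53.9) in DKO. In TAZKO the log2 ratio of Orm2 to WT was -2.06 (-2.28 to -1.84), and in YAPKO and DKO it was 0.48 and -0.18, the latter -1.07 in HCs with at least 10% of the reference genes. Orm2 made up 1.63% of the UMIs of both genes in WT (1.54% to 1.73%), 3.98% in YAPKO (3.77% to 4.19%), 1.28% in TAZKO (1.11% to 1.47%) and 2.79% in DKO (2.65% to 2.92%).

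Hp, which binds hemoglobin, was at 4621 CPM (4591 to 4652) in WT, 4875 (4842 to 4908) in YAPKO, 1490 (1470 to 1510) in TAZKO and 2871 (2852 to 2889) in DKO. Hpx, which binds heme, was at 5806 CPM (5772 to 5840) in WT, 8891 (8846 to 8936) in YAPKO, 2724 (2697 to 2751) in TAZKO and 5508 (5482 to 5534) in DKO. For both genes TAZKO was lowest and YAPKO highest. DKO lay below WT for Hp, while its Hpx level was close to WT, with a ratio that turned sign in 2 of 10 alternatives (-0.54 to 0.0039). The log2 ratios to WT were 0.08, -1.63 and -0.69 for Hp and 0.61, -1.09 and -0.08 for Hpx in YAPKO, TAZKO and DKO. Measured against the median gene instead, Hp of YAPKO changed sign, to -0.33, and in HCs with at least 10% of the reference genes it was -0.05, where Hp of DKO was -1.34.

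Lcn2 was at 21.6 CPM (19.6 to 23.8) in WT, 188 (181 to 194) in YAPKO, 6.19 (4.97 to 7.62) in TAZKO and 103 (99.7 to 107) in DKO, from 414, 3174, 89 and 3248 UMIs. Both libraries without YAP lay above WT and TAZKO below it, with log2 ratios of 3.12 (2.97 to 3.27), 2.26 (2.11 to 2.41) and -1.80 (-2.15 to -1.47). In YAPKO the level was 409 CPM in HCs under 10000 UMIs and 144 in those above, against 24.3 and 20.7 in WT. Lcn2 is also a granule protein of neutrophils and a product of bile duct cells. The 10 neutrophil markers summed to 238 CPM in WT HCs, 166 in YAPKO, 46.2 in TAZKO and 42.6 in DKO, with 7, 10, 6 and 6 of them detected, Ly6g, Camp and Ltf at 0 in WT and these and Ngp at 0 in TAZKO and DKO. The 10 BEC markers summed to 150, 455, 179 and 432 CPM, the same order of libraries as for Lcn2 but for WT and TAZKO. Cftr was at 0 in all 4, Krt7 also in TAZKO and Krt19 also in DKO, and 3 of the 10 markers reached 10 CPM in each library. Of these sums, Tm4sf4 alone gave 96.6 CPM in WT, 122 in TAZKO and 384 in DKO, and Spp1 gave 226 in YAPKO. The part of neutrophil or BEC RNA in the Lcn2 level was not tested. Leaving out HCs with 5 or more marker UMIs of another cell type, the Lcn2 log2 ratio to WT was 3.63 in YAPKO and 2.34 in DKO. In the few HCs with at least 10% of the reference genes it was 1.49 in YAPKO and -1.43 in DKO (73 and 119 cells).

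Serpina3n was at 191 CPM (185 to 197) in WT, 247 (239 to 254) in YAPKO, 161 (155 to 168) in TAZKO and 133 (129 to 137) in DKO. With all HCs its log2 ratios to WT were 0.37, -0.24 and -0.52, within 2-fold. They depended on the choice of HCs: without HCs that carried 5 or more marker UMIs of another cell type the level was 125, 65.2, 172 and 38.9 CPM, and the ratios were -0.94, 0.46 and -1.69, so that YAPKO and TAZKO turned sign and DKO passed 2-fold. With the limits of 500 and 6000 read as UMIs they were -0.12, 0.69 and -0.75, and in HCs with at least 10000 UMIs 0.35, -0.43 and -0.40. Leaving out HCs with other markers also lowered the median depth, in YAPKO from 6457 to 2953 UMIs. In all HCs under 10000 UMIs the Serpina3n level was 118, 106, 162 and 56.9 CPM. The part of depth in these ratios was not tested.

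**Figure D2:**
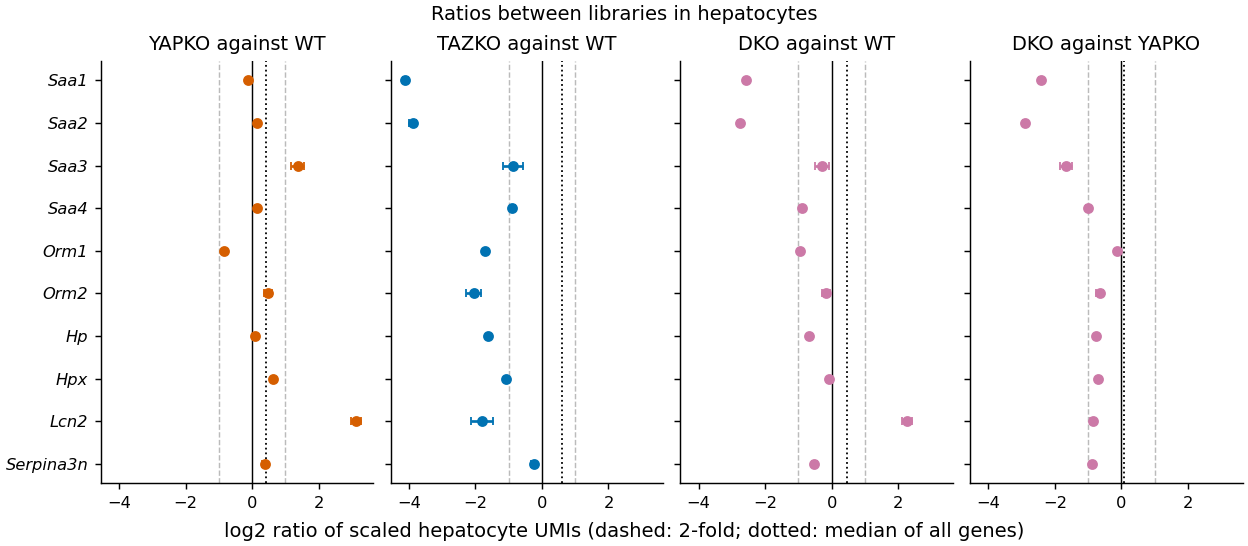
log2 ratios of scaled hepatocyte UMIs for the 10 genes in 4 comparisons, with 95% counting intervals; dashed lines mark 2-fold and the dotted line the median of all genes tested. In TAZKO against WT all 10 points lie left of 0, from -4.11 for Saa1 to -0.24 for Serpina3n, while Lcn2 lies at 3.12 in YAPKO and 2.26 in DKO.

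Counted over all genes with at least 100 UMIs in the pair of libraries, the acute phase genes stood out mainly on the low side. In YAPKO against WT, 2 of the 10 were at least 2-fold higher (Lcn2 and Saa3), where 5.49% of 9313 genes were, and 0 were 2-fold lower, where 0.601% were. In TAZKO against WT, 7 of the 10 were at least 2-fold lower, namely Saa1, Saa2, Orm1, Orm2, Hp, Hpx and Lcn2, where 1.18% of 9434 genes were. The Hpx call was lost with HCs from 10% of the reference genes (-0.58) and from 10000 UMIs (-0.82). None was 2-fold higher there, where 21.3% of genes were. Markers of other cell types were higher in TAZKO than in WT HCs for endothelial cell (EC) (231 against 115 CPM summed over 10 markers), T cell (56.6 against 13.2), B cell (65.2 against 18.9) and hepatic stellate cell markers (32.6 against 19.7), with all 10 of EC and B cell markers detected in both. Also higher were NK cell (30.5 against 17.8), erythroid (90.6 against 46.4), monocyte and macrophage (629 against 445) and Kupffer cell markers (207 against 163). Neutrophil (46.2 against 238), dendritic cell (326 against 452) and dividing cell markers (12.5 against 12.8) were lower. Some of these sums were mostly 1 gene in both libraries. Alas2 gave 86.8 against 43.0 CPM of the erythroid sum and Fn1 590 against 429 of the monocyte and macrophage sum. Bst2 gave 306 against 448 of the dendritic cell sum. Whether these reads came from other cells was not tested. Without the HCs that carried 5 or more marker UMIs of another cell type the 7 ratios lay between -4.56 and -1.32, that of Lcn2 on fewer than 100 UMIs. In DKO against WT, Lcn2 was the 1 gene at least 2-fold higher (12.3% of 10160 genes) and Saa1 and Saa2 were the 2 lower (1.72%). In DKO against YAPKO, 4 were at least 2-fold lower (Saa1, Saa2, Saa3 and Saa4), where 2.73% of 10250 genes were, and 0 were higher, where 3.8% were. Saa4 was just past the call at -1.02, and in 6 of 10 alternatives it was not called (-0.98 to -0.45). The median log2 ratio of the 10 genes was 0.26, -1.67, -0.60 and -0.88 in these comparisons, against 0.40, 0.61, 0.46 and 0.07 over all genes. Relative to that median gene, 1 was at least 2-fold higher and 1 lower in YAPKO, where 1.62% and 1.41% of all genes were. In TAZKO 0 were higher and 9 lower, where 3.73% and 5.52% of all genes were, and in DKO 1 was higher and 5 lower, where 4.88% and 3.8% were. The comparisons share the WT or the YAPKO library.

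The genes also differed in how many HCs carried them. To set libraries of different depth side by side, each HC was thinned to 2000 UMIs, which left 1319 WT, 1015 YAPKO, 1433 TAZKO and 2591 DKO cells and left out 935, 144, 1679 and 334 shallower ones. Hp was then found in 99.8%, 99.1%, 90.8% and 93.9% of HCs, Hpx in 99.01%, 99.5%, 95.0% and 98.7%, and Orm1 in 99.5%, 95.0%, 81.2% and 93.2% of WT, YAPKO, TAZKO and DKO cells. These 3 genes were in at least 93.2% of WT, YAPKO and DKO HCs. Each was in a smaller share of TAZKO HCs than of the HCs of any other library. At 1000 UMIs Hp was in 79.2% and Orm1 in 58.7% of TAZKO HCs. Saa1 was found in 88.0% of WT (86.1% to 89.7%), 75.4% of YAPKO (72.6% to 78.0%), 12.1% of TAZKO (10.5% to 13.9%) and 24.7% of DKO cells (23.1% to 26.4%), and Saa2 in 58.1%, 46.0%, 3.77% and 6.14%. Before thinning, Saa1 was found in 91.2%, 90.1%, 18.1% and 46.0%. Saa1 thus went from most HCs in WT and YAPKO to a minority in TAZKO and DKO. Lcn2 was found in 4.40% of WT (3.36% to 5.65%), 21.5% of YAPKO (18.99% to 24.1%), 0.489% of TAZKO (0.197% to 1.00%) and 10.2% of DKO cells (9.01% to 11.4%), and before thinning in 10.9%, 47.0%, 1.12% and 21.8%. Most YAPKO and DKO HCs thus had no Lcn2 UMI at this depth. Saa4 was found in 20.2% to 35.2%, Serpina3n in 14.4% to 26.6%, Orm2 in 2.16% to 11.9% and Saa3 in 1.97% to 4.33% of the cells of a library.

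**Figure D3:**
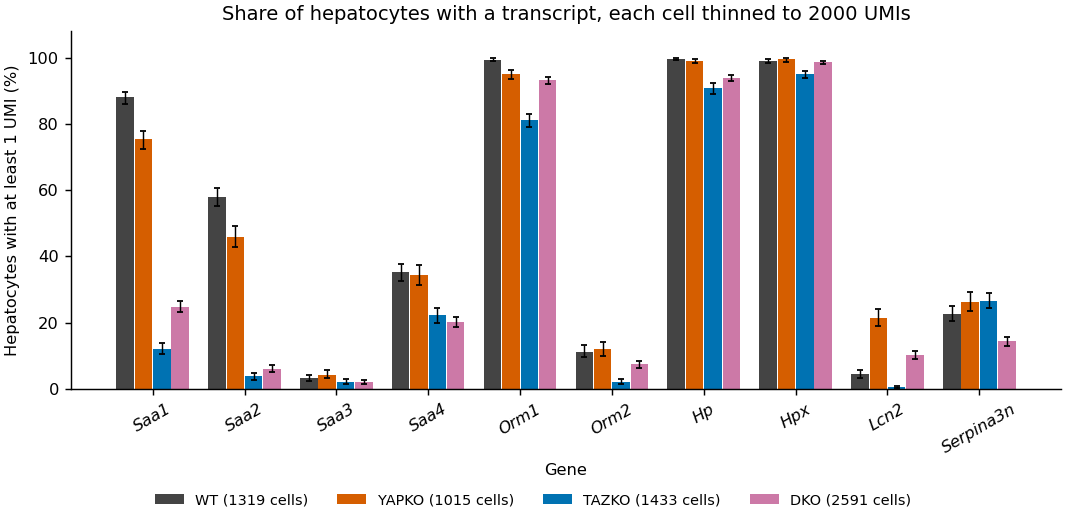
Share of hepatocytes with at least 1 UMI of each gene after every cell was thinned to 2000 UMIs, with exact 95% binomial intervals, by library. Hp, Hpx and Orm1 are in at least 81.2% of cells of every library, Saa1 is in 88.0% of WT and 12.1% of TAZKO cells, and Lcn2 is in 21.5% of YAPKO cells.

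Free RNA in droplets can add UMIs to cells that do not express a gene, so the share was compared with B cell-like cells, which should lack the genes, both thinned to 1000 UMIs. Saa1 was in 70.2%, 62.2%, 7.71% and 16.6% of WT, YAPKO, TAZKO and DKO HCs, against 13.1%, 5.96%, 0.535% and 0.612% of B cell-like cells. Lcn2 was in 1.73%, 14.9%, 0.264% and 6.18% of HCs, against 0%, 0.459%, 0% and 0.917% of B cell-like cells, and with 327 to 561 such cells per library the TAZKO share of HCs was within the interval of that background (up to 0.655%). Saa3 was in 1.78%, 3.37%, 0.956% and 1.35% of HCs, against 0.235%, 0%, 0.178% and 0%. The median depth was 2933, 2875.5, 2813 and 2155 UMIs in B cell-like cells.

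Where Saa1 and Saa2 were low, their UMIs sat in a small number of cells. Of the Saa2 UMIs, 50% came from 78 of the WT HCs, 57 of the YAPKO HCs, 2 of the TAZKO HCs and 15 of the DKO HCs, and for Saa1 the numbers were 107, 93, 14 and 68 cells. The variance of thinned Saa2 UMIs over its mean (Fano factor) was 3.81 in WT, 10.5 in YAPKO, 5.11 in TAZKO and 19.9 in DKO, and for Saa1 it was 4.28, 8.19, 2.58 and 10.3. For Orm1 this measure stayed between 1.37 and 2.28. Lcn2 was also uneven: 29 YAPKO and 34 DKO HCs held 50% of its UMIs, with 237 in the highest YAPKO cell, and in TAZKO 2 cells did. A TAZKO difference for Saa2 or Lcn2 between subsets of HCs therefore rests on very few cells.

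Across thinned HCs, Saa1 and Saa2 varied together, with Pearson r (of log UMIs per 10000) of 0.41 in WT, 0.55 in YAPKO, 0.24 in TAZKO and 0.48 in DKO (1319, 1015, 1433 and 2591 cells that share a library and, in part, reads). Saa2 was found in few TAZKO (3.77%) and DKO (6.14%) cells, so these values are not compared between libraries. Among 1554 genes with at least 1000 UMIs in every library, those most like Saa1 plus Saa2, by r averaged over the 4 libraries, were Hp (0.168), Orm1 (0.166), Hpx (0.161), Mup20 (0.160), Mup3 (0.140), Mup21 (0.134), Apoa1 (0.0952), Ttr (0.0880), Mup7 (0.0787) and Saa4 (0.0787). All are secreted products of HCs, the Mup genes have near-identical copies, and the values are low in sparse counts and hence a description only. For Mup20 the r was 0.431 in WT and 0.077, 0.045 and 0.085 in YAPKO, TAZKO and DKO. For Mup3 it was 0.368, 0.165, 0.020 and 0.0046 in the same order. Serpina3n ranked 529 with a mean r of -0.0017.

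HCs differ along the axis from the portal to the central vein. HCs of each library were split into 3 groups of equal size, called pericentral, middle and periportal, by the ratio of 10 pericentral to 10 periportal genes, which for WT put Cyp2e1 at 897 CPM in the pericentral and 1.75 in the periportal group and Cyp2f2 at 581 and 1508. The groups are ranks within a library and do not hold like cells in each: Cyp2e1 in the pericentral, middle and periportal group was at 897, 40.1 and 1.75 CPM in WT, 1185, 12.1 and 1.77 in YAPKO, 2555, 1226 and 153 in TAZKO and 991, 30.3 and 3.31 in DKO. The middle group of TAZKO thus lay above the pericentral group of WT. Of the pericentral genes measured, 4 of 6 in YAPKO, 5 of 7 in TAZKO and 4 of 7 in DKO were at least 2-fold higher than in WT over all HCs (5.49%, 21.3% and 12.3% of all genes). Values along the axis are therefore compared within a library. Hpx was higher in the periportal group in every library, at 3622 against 6357 CPM in WT, 5532 against 9753 in YAPKO, 1608 against 3323 in TAZKO and 3572 against 6276 in DKO (pericentral against periportal). Its log2 ratio was 0.81, 0.82, 1.05 and 0.81. Orm1 differed little, by 0.14 to 0.34. Depth moved with the axis: the median HC of the pericentral, middle and periportal group had 1812, 1905 and 8945 UMIs in WT, and its part in these ratios was not tested beyond the following. Taking only HCs with at least 10000 UMIs, Hpx kept its direction, at 0.46, 0.45, 0.82 and 0.44.

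Over all HCs, Lcn2 and Orm2 lay on opposite sides of this ranking in different libraries. In HCs with at least 10000 UMIs the Lcn2 ratio was negative in all 4 libraries (-0.15, -1.16, -1.01 and -2.04). That of Orm2 was 0.25 (-0.013 to 0.52) in WT, -0.80 in YAPKO, 0.20 in TAZKO and -1.65 in DKO in these deep HCs. Lcn2 was at 380, 245 and 112 CPM in the pericentral, middle and periportal group of YAPKO and at 134, 150 and 65.6 in DKO, log2 ratios of -1.76 (-1.88 to -1.64) and -1.03 (-1.15 to -0.90), and in HCs with at least 10000 UMIs -1.16 and -2.04. By Cyp2e1 and Cyp2f2 alone the DKO ratio was 0.095. In WT Lcn2 was at 10.1, 14.1 and 24.4 CPM (1.28), which turned to -0.15 in the deep HCs. Orm2 was at 157, 74.6 and 62.0 CPM in YAPKO and 65.6, 70.9 and 34.7 in DKO, against 41.1, 57.8 and 60.7 in WT. Both genes were thus lowest on the periportal side in YAPKO, a side of that library with a median of 25976 UMIs per HC against 3025 on the pericentral side. By Cyp2e1 and Cyp2f2 alone both were highest in the middle group of YAPKO, Lcn2 at 289, 407 and 116 CPM (-1.32) and Orm2 at 97.1, 113 and 70.2 (-0.47, against -1.34 by all genes of the score). Saa1 was at 923, 1356 and 2102 CPM in WT, where it was periportal (1.19, and 0.56 in deep HCs), near level in YAPKO at 1612, 1688 and 1741, and at 372, 359 and 269 in DKO (-0.47, and -0.62 in deep HCs). Saa2 of DKO was at 200, 150 and 51.8 CPM (-1.95, and -2.45 in deep HCs), where 15 cells held 50% of its UMIs, and by Cyp2e1 and Cyp2f2 alone the ratio was -0.95. The difference between libraries in these ratios was not tested.

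**Figure D4:**
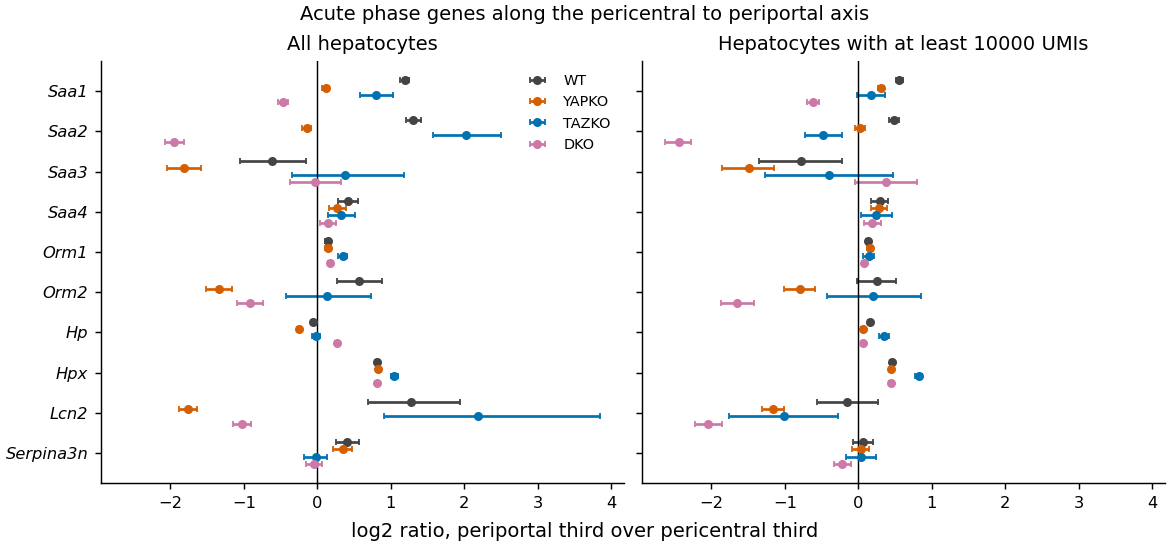
log2 ratio of the periportal over the pericentral group of hepatocytes for each gene and library, with 95% counting intervals, for all hepatocytes (left) and for those with at least 10000 UMIs (right). Hpx is positive in all 4 libraries in both panels, and Lcn2 and Orm2 are negative in YAPKO and DKO.

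The genes that carry the acute phase signal were described in the same HCs, in lists chosen by role. Of 10 inducing cytokines, 2 reached 100 UMIs, of which 0 were 2-fold from WT in YAPKO and 1 was lower in each of TAZKO and DKO. Il1b was at 16.6, 12.3, 3.48 and 4.36 CPM in WT, YAPKO, TAZKO and DKO HCs and at 5559, 3758, 2818 and 4173 CPM in neutrophil-like cells. The 10 neutrophil markers fell in the same HCs, with sums of 238, 166, 46.2 and 42.6 CPM. The part of neutrophil RNA in the Il1b level of HCs was not tested. Il6 had 3, 54, 1 and 1 UMIs in HCs and was at most 10.6 CPM in Kupffer cell (KC)-like cells. For the lists, as for the 10 genes, counts are read against the share of all genes past 2-fold, 5.49% higher and 0.601% lower in YAPKO, 21.3% and 1.18% in TAZKO, and 12.3% and 1.72% in DKO. Of 7 receptor chains measured, 1 was at least 2-fold higher in YAPKO, 1 in TAZKO and 0 in DKO. In YAPKO it was the interleukin-6 receptor Il6ra, at 17.4, 38.3, 32.3 and 31.5 CPM. Lifr, the receptor of leukemia inhibitory factor and the highest of the list in WT, was at 93.7, 85.3, 198 and 63.3 CPM.

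Of 15 transcription factors and kinases, 3 were at least 2-fold higher in YAPKO, 4 in TAZKO and 0 in DKO, and 0 were lower, where 5.49%, 21.3% and 12.3% of all genes were higher. Cebpb, a C/EBP factor of the acute phase and the highest of the list in WT, was at 278 CPM in WT, 596 in YAPKO, 211 in TAZKO and 525 in DKO, log2 ratios of 1.10, -0.40 and 0.92. Cebpd was at 7.04, 14.9, 6.96 and 10.8 CPM and the kinase Tyk2 at 3.49, 7.10, 7.51 and 5.47. Stat3 was at 48.9, 91.2, 61.7 and 49.9 CPM, within 2-fold of WT. The Cebpb order of libraries, YAPKO, DKO, WT and TAZKO, was that of Lcn2, in 4 libraries.

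Among feedback inhibitors and induced regulators, 2 of 8 measured were at least 2-fold higher and 1 lower in YAPKO, 1 of 7 was higher in TAZKO, and 3 of 9 were higher in DKO, where 5.49% of all genes were higher and 0.601% lower in YAPKO, 21.3% higher in TAZKO and 12.3% higher in DKO. Socs3, an inhibitor of cytokine receptor signalling induced by STAT3, was at 4.28, 14.3, 9.32 and 10.6 CPM, above WT in all 3 mutant libraries, by log2 ratios of 1.74, 1.12 and 1.30. Socs2 was lower in YAPKO at 10.0 against 26.2 CPM, and Bcl3 higher at 37.6 against 18.4. In DKO the NF-kB inhibitor Tnfaip3 was at 2.77 against 0.730 CPM and the interleukin-1 receptor antagonist Il1rn at 6.61 against 2.40. Nfkbia and Pim3, the highest of the list, stayed within 2-fold.

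The other positive acute phase genes did not move as one group. Of 26 measured in YAPKO, 3 were at least 2-fold higher (5.49% of all genes) and 0 lower, with a median log2 ratio of 0.18, where that of all genes was 0.40. The metallothioneins, which bind zinc, were the highest ratios: Mt1 at 217, 1753, 101 and 165 CPM and Mt2 at 19.7, 285, 11.6 and 10.1. Both were high in YAPKO alone, unlike Lcn2, which was also high in DKO. Cd14, a co-receptor for bacterial lipopolysaccharide, was at 3.49, 12.7, 1.46 and 11.1 CPM, higher in YAPKO and DKO. In TAZKO 1 of 25 was higher and 5 lower, where 21.3% and 1.18% of all genes were, and in DKO 1 of 27 was higher and 4 lower, where 12.3% and 1.72% were. The genes lower in DKO were the fibrinogen chains Fga (3342 CPM in WT and 885 in DKO), Fgb (9484 and 2055) and Fgg (6024 and 1305) and the related Fgl1 (260 and 49.8). In YAPKO these 4 were at 3427, 6748, 3952 and 190 CPM, and in TAZKO at 2965, 3531, 3287 and 129. The fibrinogen genes were thus lowest in DKO, while Saa1, Saa2, Hp and Orm1 were lowest in TAZKO. C3, Serpina1a and the C-reactive protein gene Crp, by contrast, were at 2675, 3618 and 265 CPM in DKO against 1763, 3673 and 192 in WT.

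Negative acute phase genes, which fall in the classical response, showed 1 of 16 at least 2-fold higher and 0 lower in YAPKO, 2 and 0 in TAZKO, and 2 and 1 in DKO, shares near or below those of all genes for the higher side (5.49%, 21.3% and 12.3%). Their median log2 ratios were 0.0012, 0.20 and 0.11, below those of all genes (0.40, 0.61 and 0.46) in each library. Alb, Ttr and Apoa1 of this list were also among the genes that defined HCs, so these counts and medians depend in part on that rule. Alb, the albumin gene and one of those that defined HCs, was at 40096, 40194, 46719 and 33966 CPM. Cyp7a1, the rate-limiting enzyme of bile acid synthesis, was at 4.54, 9.88, 79.7 and 29.0 CPM, and Cyp8b1, which makes cholic acid, at 164, 180, 279 and 32.4. Pon1 was at 71.8, 64.4, 259 and 146 CPM. Among receptors and clearance genes of these proteins, 3 or 4 were measured, and 0 of 3 were 2-fold from WT in YAPKO, 1 of 4 was higher in TAZKO (21.3% of all genes) and 0 of 4 in DKO. Lrp1, which takes up heme bound to hemopexin, was at 110, 154, 199 and 118 CPM. Of the Serpina3 paralogs, Serpina3k was at 8851, 9963, 8261 and 4779 CPM.

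Outside the HCs, cells were clustered without the 10 genes and named from markers as EC-, KC-, hepatic stellate cell (HSC)-, BEC-, neutrophil-, monocyte and macrophage-, dendritic cell-, T cell-, NK cell- and B cell-like. For each gene the UMIs per UMI of Alb, Apoa1, Ttr and Apoc3 were compared with the same ratio in HCs of the same library. The comparison assumes that free HC RNA holds its genes in 1 ratio in every cell type, which was not tested. For Saa1 this quotient had a median of 1.05 (0.259 to 1.44) over 23 pairs of cell type and library with at least 20 UMIs, for Saa2 1.26 (0.508 to 1.63), for Saa4 1.25 (0.954 to 1.59), for Orm1 1.23 (0.354 to 1.67), for Hpx 0.766 (0.262 to 1.71) and for Serpina3n 1.37 (0.856 to 2.004). In other cells the medians of these genes were thus near the ratio in HCs, while single pairs of Saa1, Hpx and Orm1 lay well below it. HCs held 92.4% to 96.0% of the Saa1 UMIs of a library and 87.7% to 92.9% of the Hp UMIs. Of 81 pairs of gene and cell type with at least 20 UMIs, 5 were at least 2-fold above the HC ratio in all 4 libraries: Lcn2 in neutrophil-like and BEC-like cells, Hp in neutrophil-like and in monocyte and macrophage-like cells, and Saa3 in monocyte and macrophage-like cells.

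**Figure D5:**
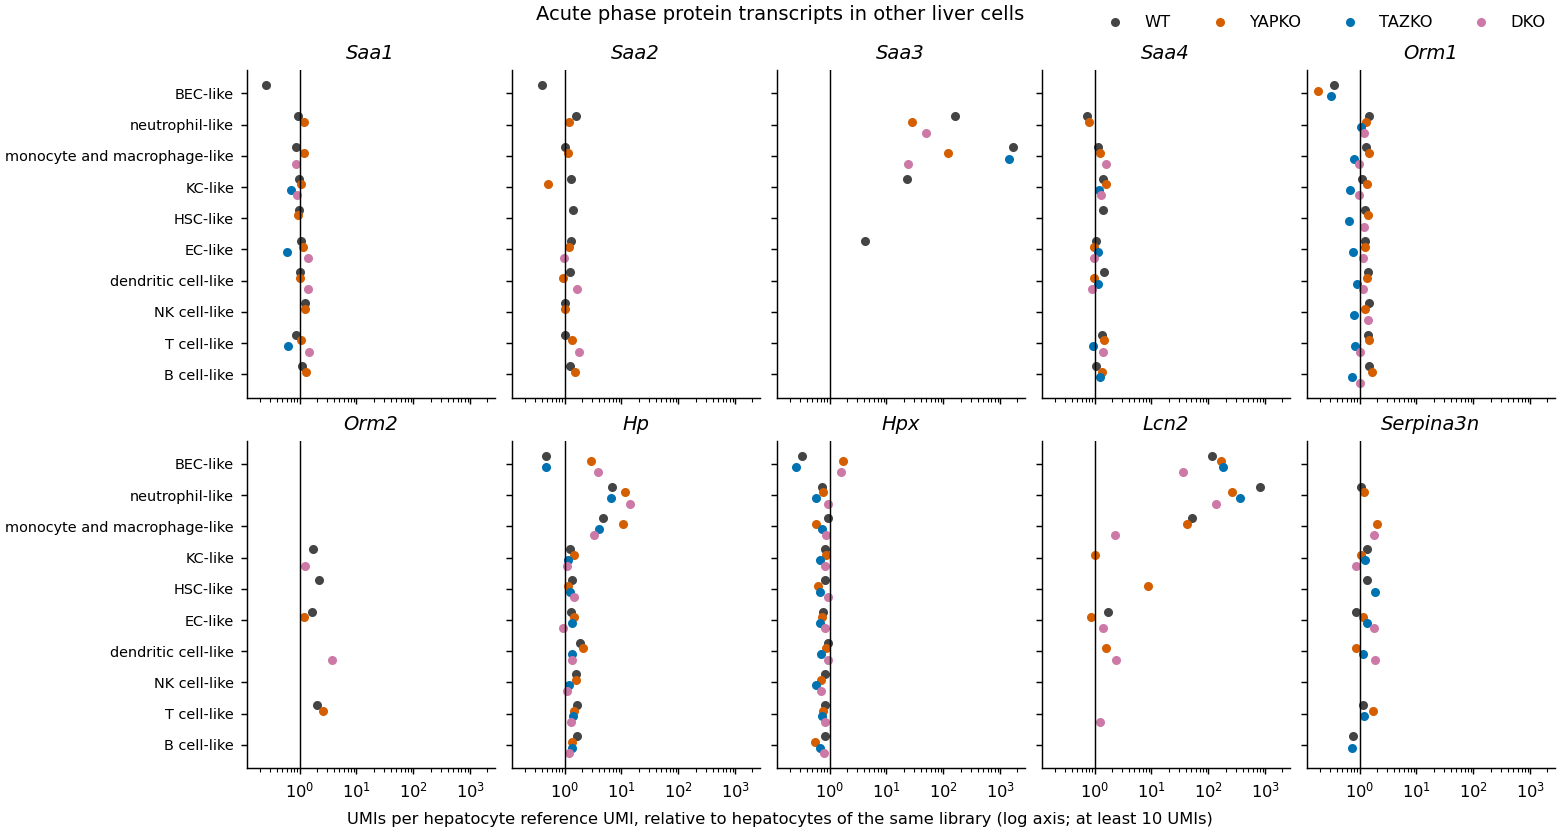
For each gene, cell type and library with at least 10 UMIs, the UMIs per UMI of Alb, Apoa1, Ttr and Apoc3, divided by the same ratio in hepatocytes of that library, on a log axis. Most points lie near 1, and Lcn2 (139 to 816) and Hp (6.57 to 13.9) of neutrophil-like cells lie above it in all 4 libraries.

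Lcn2 in neutrophil-like cells was at 1257 CPM (1189 to 1327) in WT, 966 (926 to 1008) in YAPKO, 193 (129 to 277) in TAZKO and 311 (273 to 354) in DKO, from 344, 497, 54 and 219 cells. It was found in 58.1%, 39.4%, 25.9% and 28.8% of these cells at a median of 2321.5, 2413, 2046.5 and 1937 UMIs. The order of WT and YAPKO depended on the clustering: without batch correction the neutrophil-like class held 304 WT and 386 YAPKO cells, and YAPKO was at 1987 CPM (1901 to 2076) against 1732 (1637 to 1830) in WT. DKO was lower than WT by a log2 ratio of -2.01 (-2.22 to -1.81), and by -1.49 without correction, where DKO HCs were higher. Of all Lcn2 UMIs of a library, neutrophil-like cells held 66.2% in WT, 28.5% in YAPKO, 17.8% in TAZKO and 6.31% in DKO, and HCs 21.3%, 42.7%, 54.6% and 87.9%. In the cells sampled, as mixed and recovered in each preparation, neutrophil-like cells thus held more Lcn2 UMIs than HCs in WT and fewer in YAPKO and DKO. In TAZKO the HC part was 89 UMIs, of which 2 of 3112 cells held 50%, and no order is read from it.

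Lcn2 in BEC-like cells was at 200 CPM (166 to 238) in WT, 1805 (1687 to 1929) in YAPKO, 126 (88.2 to 174) in TAZKO and 178 (97.0 to 298) in DKO, from only 54, 33, 27 and 7 cells. In YAPKO 32 of the 33 cells had an Lcn2 UMI, against 27 of 54 in WT, 15 of 27 in TAZKO and 3 of 7 in DKO, at a median of 12855 UMIs per cell in YAPKO, 10758 in WT, 8957 in TAZKO and 9006 in DKO. YAPKO was the highest library with a log2 ratio to WT of 3.18 (2.90 to 3.46), close in size to that in HCs. In the 7 DKO cells it was -0.17 (-1.08 to 0.63). The dividing cluster held 712 YAPKO Lcn2 UMIs from 6 of its 147 cells, 413 of them from 1 cell, and at most 2 in the other libraries.

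Hp in neutrophil-like cells was at 2244 CPM (2153 to 2338) in WT, 1139 (1094 to 1184) in YAPKO, 851 (710 to 1011) in TAZKO and 866 (801 to 935) in DKO, at 6.81, 11.7, 6.57 and 13.9 times the HC ratio. It was found in 97.7%, 81.7%, 75.9% and 71.7% of these cells, against 73.7%, 31.9%, 35.7% and 21.04% of B cell-like cells. WT was highest, with log2 ratios of -0.98, -1.40 and -1.37 for YAPKO, TAZKO and DKO, and of -0.52, -1.22 and -0.73 without batch correction. In monocyte and macrophage-like cells Hp was at 550, 413, 160 and 122 CPM, at 4.71, 10.7, 4.07 and 3.23 times the HC ratio, from 133, 555, 118 and 531 cells.

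Saa3 in monocyte and macrophage-like cells was at 714 CPM (669 to 762) in WT, 41.8 (37.2 to 46.8) in YAPKO, 341 (304 to 382) in TAZKO and 4.29 (2.59 to 6.71) in DKO. It was found in 16 of 133, 29 of 555, 9 of 118 and 6 of 531 cells, so that 3 WT, 5 YAPKO, 2 TAZKO and 1 DKO cells held 50% of its UMIs, with 319 in the highest WT cell. WT and TAZKO were thus high and YAPKO and DKO low, the reverse of HCs for YAPKO, but on a handful of cells. These cells held 56.9%, 27.02%, 64.1% and 3.89% of the Saa3 UMIs of a library, and HCs 19.7%, 66.1%, 27.6% and 87.3%. Whether the same cell subtypes make up this class in each library was not tested.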

How the data were processed

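Dissociated liver cells of 4 mice (WT, YAPKO, TAZKO, DKO) were sequenced with the Chromium 3′ kit. The authors deposited raw UMI count matrices aligned to mm10; the study's methods and processing notes name Cell Ranger 6.0.1, the matrix headers Cell Ranger 4.0.0. Libraries held 7711 to 14418 barcodes and 49022089 to 85989454 UMIs. Cells, hepatocytes and the 10 genes were selected as described; the genes, lists and markers were chosen with earlier results of these data known. UMIs were summed over hepatocytes and scaled to 1000000. Levels have exact Poisson intervals, shares exact Clopper-Pearson intervals and ratios exact conditional binomial intervals (95%, counting error only). Only the ratio intervals were tried on simulated data. Those were Poisson counts without spread between cells or mice, so the trial says nothing about such spread. A call is a 2-fold ratio at 100 or more UMIs in the pair. A count of 0 allows 3 UMIs. Other cells were normalized and scaled with scanpy 1.11.5 (2000 variable genes without the 10 genes). They were clustered by the Louvain method on a graph of shared neighbours (20 components, 20 neighbours, resolution 0.4). Before this the components were corrected by library with a reimplementation of Harmony. A cluster was named from at least 3 fixed markers, but 5 clusters that reached this number stayed unnamed. Their best markers were those of hepatocytes, dividing cells, mesothelial cells and, in a cluster of 706 cells, KCs. Of the 10 leading genes of that cluster, 4 were erythroid and 3 KC markers. No doublet caller was run; hepatocytes with 5 or more marker UMIs of another type were left out in an alternative. From the lists, genes 2-fold from WT in YAPKO or DKO and the highest gene were named, and others as examples after their values were seen (Stat3, Pim3, Il6, C3, Serpina1a, Crp). Tools were Python 3.11.15, numpy 2.4.6, scipy 1.17.1 and pandas 2.3.3. Promoters are from RefSeq (GRCm38.p6), coordinates from GENCODE on GRCm38, which lists 55227 of the 55488 gene identifiers. The alternatives are given in the closing section.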

Additional observations from a re-analysis of the deposited data

Results flagged for a closer look

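Saa3 differed in opposite directions between cell types in YAPKO against WT. Its log2 ratio was 1.37 in hepatocytes, -4.09 in monocyte and macrophage-like cells and -2.99 in neutrophil-like cells. In the neutrophil-like cells of WT 176 of the 197 Saa3 UMIs came from 1 cell. These differences between cell types were not tested.

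Lcn2 in DKO against WT was higher in hepatocytes, with a log2 ratio of 2.26, and lower in neutrophil-like cells, with -2.01 (-1.49 without batch correction). The difference between the cell types was not tested.

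Barcodes with fewer than 500 detected genes, which entered no comparison except in part the alternative with limits read as UMIs, held 65 Lcn2 UMIs in WT and 45 in YAPKO. Their Lcn2 level was 12.9 CPM in WT and 55.1 CPM in YAPKO, a log2 ratio of 2.09 where hepatocytes had 3.12.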

How the results depend on the processing

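Each of the 40 hepatocyte ratios was recomputed under 10 alternatives. The number of genes at least 2-fold higher in YAPKO was 2, and 1 with hepatocytes taken from 10% reference UMIs, without hepatocytes that carried other markers, or relative to the median gene, where 1 was lower in place of 0. Of all genes, 5.49% were higher there, and 4.17%, 15.9% and 1.62% under these alternatives, and relative to the median gene 1.41% were lower in place of 0.601%. In DKO against WT, 1 was higher, and 0 with hepatocytes from 10%; 2 were lower, and 5 with hepatocytes from 10%, 5 without other markers, 5 relative to the median gene, and 3 (with Orm1) with limits read as UMIs, with scaling without mitochondrial genes, the 10 genes and reference genes, or by the mean of cells. On the higher side were 12.3% of all genes, and 10.1% with hepatocytes from 10%. Of all genes, 1.72% were lower, and under these alternatives 2.09%, 4.14%, 3.8%, 3.18%, 1.82% and 2.38%, in that order. In DKO against YAPKO, 3 to 5 were lower (4 with all hepatocytes), Saa4 being called in 4 of the 10, where 2.16% to 3.44% of all genes were lower. In TAZKO against WT, 6 to 9 were lower under the alternatives and none was higher. Of all genes, 1.1% to 5.52% were lower and 3.73% to 52% higher under the same alternatives, 5.52% being relative to the median gene (with 9 of the 10) and 1.82% with hepatocytes from 10% (with 6). The Hpx call was lost there (-0.58) and from 10000 UMIs (-0.82), and Lcn2 had too few UMIs for a call without other markers. With limits read as UMIs the hepatocytes were other cells, 7324 in WT, 1186 in YAPKO, 7080 in TAZKO and 1759 in DKO, in part with fewer than 500 genes. With hepatocytes from 10% (73 to 233 cells) the log2 ratio of Saa3 in YAPKO turned to -0.72 and that of Lcn2 in DKO to -1.43. The cause was not tested. Of 24 ratios under 2-fold, 8 turned sign in at least 1 alternative: Saa1, Saa2, Saa4, Hp and Serpina3n in YAPKO, Serpina3n in TAZKO and Hpx and Serpina3n in DKO against WT. Among these, with hepatocytes from 10%, Saa2 of YAPKO was -0.51 and Hp -0.05, and without other markers Saa4 of YAPKO was -0.42 and Serpina3n -0.94 in YAPKO and 0.46 in TAZKO. Saa1 and Saa2 stayed at least 2-fold lower than WT in TAZKO (-6.58 to -3.38) and, from -4.52 to -1.73, in DKO under every alternative, and Lcn2 stayed higher in YAPKO (1.49 to 4.43). Along the axis, in hepatocytes from 10000 UMIs, Lcn2 turned to -0.15 in WT and -1.01 in TAZKO and Saa2 to -0.48 in TAZKO, and by Cyp2e1 and Cyp2f2 alone Lcn2 of DKO turned to 0.095, while Saa2 of DKO went from -1.95 to -0.95 and Orm2 of YAPKO from -1.34 to -0.47. The 5 pairs of gene and cell type above the hepatocyte ratio were the same without batch correction, in cells under 1% reference UMIs and with 5 other reference genes, but their levels moved: without correction Lcn2 of neutrophil-like cells in YAPKO against WT turned from -0.38 to 0.20. The limit to hepatocytes from 10000 UMIs and the removal of the upper limit of genes were chosen after seeing the data. With a minimum of 20 in place of 100 UMIs, the number of all genes at least 2-fold higher went from 511 to 1062 in YAPKO, 2006 to 3485 in TAZKO and 1253 to 2163 in DKO, and lower from 56 to 189, 111 to 244 and 175 to 367, with the same counts among the 10 genes. No library could be left out, as each genotype has 1. No paired analysis was possible because each genotype has 1 library. In TAZKO Saa3, Orm2 and Lcn2 rest on few UMIs, 132, 200 and 89.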
